A study of Drosophila melanogaster with 4 samples.

Results

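The translation initiation and elongation factors of Drosophila were taken as the genes whose FlyBase symbol begins with eIF or eEF and a digit. The rule found 51 of the 17697 genes in the tables, 44 of them named as initiation factors and 7 as elongation factors. The rule itself uses symbols and no measured value, but it was chosen with earlier results of these data known. Of the 51 genes, 44 passed the filter on low counts and were tested. The other 7, eIF4E4, eIF4E5, eIF4E7, eIF4H2, eIF3d2, eIF3f2 and eIF3g2, had at most 2 counts in any library.

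Poly(A) RNA was sequenced from S2 cells, a wild type line derived from late fly embryos, with 2 libraries from cells given heat shock and 2 from untreated cells. Heat shock lasted 1 h at 37 °C and was followed by 1 h at 27 °C before lysis, so that the transcripts were measured after recovery and not at the high temperature. Untreated cells were kept at 27 °C, in the same medium with serum. Lysis of each replicate on its own is stated for the heat shock cells, while separate cultures are stated for neither group, so the p-values measure the spread between these libraries, which may be technical. The line carries no transgene or deletion in the labels. It is a single line of cultured cells.

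An mRNA is translated when the cap-binding protein eIF4E, the scaffold eIF4G and the helicase eIF4A bring it to a small ribosomal subunit that carries eIF3, eIF1, eIF1A and the initiator tRNA held by eIF2. The complex scans to a start codon, eIF2 leaves with GDP and is recharged with GTP by eIF2B, and eIF5B joins the large subunit. During elongation eEF1alpha brings each aminoacyl-tRNA, the other eEF1 subunits recharge it with GTP, and eEF2 moves the ribosome by a codon. Heat shock is known to lower cap-dependent translation in fly cells while the mRNAs of heat shock proteins remain translated.

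Totals of estimated counts were 11988483 and 10602190 in the heat shock libraries and 10221418 and 10354706 in the untreated libraries. Hsp70 copies held 12.9% and 14.3% of the counts after heat shock, against 0.0671% and 0.0699% in untreated cells. Wilson 95% intervals of these shares reach at most 0.021 percentage points to either side and cover counting error only. TMM factors, which correct library totals for such a shift of composition, were 0.837 and 0.825 after heat shock and 1.22 and 1.18 in untreated cells. Levels in heat shock and untreated cells are compared as CPM (estimated counts scaled to a common TMM-corrected library size), except where TPM or counts are named. Of 12 blood cell markers that S2 cells could hold, 6 stayed under 10 CPM in every library (Hml, NimC1, Pxn, He, eater and Sr-CI), with He at 0, while srp, ush, crq, Pvr, Col4a1 and vkg were above it. Of 14 markers of neurons, muscle, germ line, fat body and follicle cells, all but elav and aub stayed under 10 CPM in every library. In bulk RNA, fewer cells of a type and less of a transcript per cell cannot be told apart.

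After heat shock, 17 of the 44 factors tested were higher and 5 were lower at an adjusted p-value under 0.05 in the quasi-likelihood test of edgeR, and 22 were not called. These were 38.6% and 11.4% of the factors tested, while over all 8784 genes tested 21.4% were higher and 18.6% lower. The median log2 fold change was 0.12 over the factors and -0.024 over all genes. The changes were small, and eEF1alpha2 was the only factor past 2-fold. Most factors are abundant transcripts. The 33 factors that averaged at least 100 CPM held 16 rises and 1 fall, with a median of 0.18. Among all 1758 genes above that level, 35.0% were higher, 12.1% were lower and the median was 0.10. Without the first heat shock library 10 factors (22.7%) were higher and 3 (6.82%) lower, beside 17.5% and 14.1% of all genes tested. Without the first untreated library 13 factors (29.5%) were higher and 2 (4.55%) lower, beside 19.7% and 15.9% of all genes tested.

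The direction of most of these changes depended on how the libraries were scaled. With library totals alone, 1 factor was higher and 39 were lower, beside 8.75% of all genes higher and 71.2% lower, and the median over the factors was -0.42 against -0.56 over all genes. With totals counted without the heat shock genes, 4 factors were higher and 14 lower, beside 13.8% of all genes higher and 41.0% lower, with medians of -0.079 over the factors and -0.22 over all genes. The difference between both medians was 0.14 under TMM and under each of these scalings. A change of scaling shifts all genes by nearly the same amount, so this difference had to stay and tests nothing. The medians lay closer among genes that averaged at least 100 CPM, at 0.18 for the factors and 0.10 for all genes with TMM. The 9 calls that kept their direction with totals counted without the heat shock genes were the rises of eIF4EHP, eIF4A, eIF4G2 and eEF1alpha2 and the falls of eEF1delta, eIF2Balpha, eIF2Bbeta, eIF2Bepsilon and eIF2A. With library totals alone, eEF1alpha2 and the same 5 falls kept their calls, and no call was left for eIF4EHP, eIF4A or eIF4G2. The other 13 rises turned into called falls with library totals alone. DESeq2, which scales much as TMM does, called 13 factors higher and 1 lower, beside 11.7% and 5.79% of all genes with an adjusted p, and did not call eIF4E1, eIF4B, eIF3j, eIF3k, eIF2A or the 3 eIF2B genes.

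**Figure D1:**
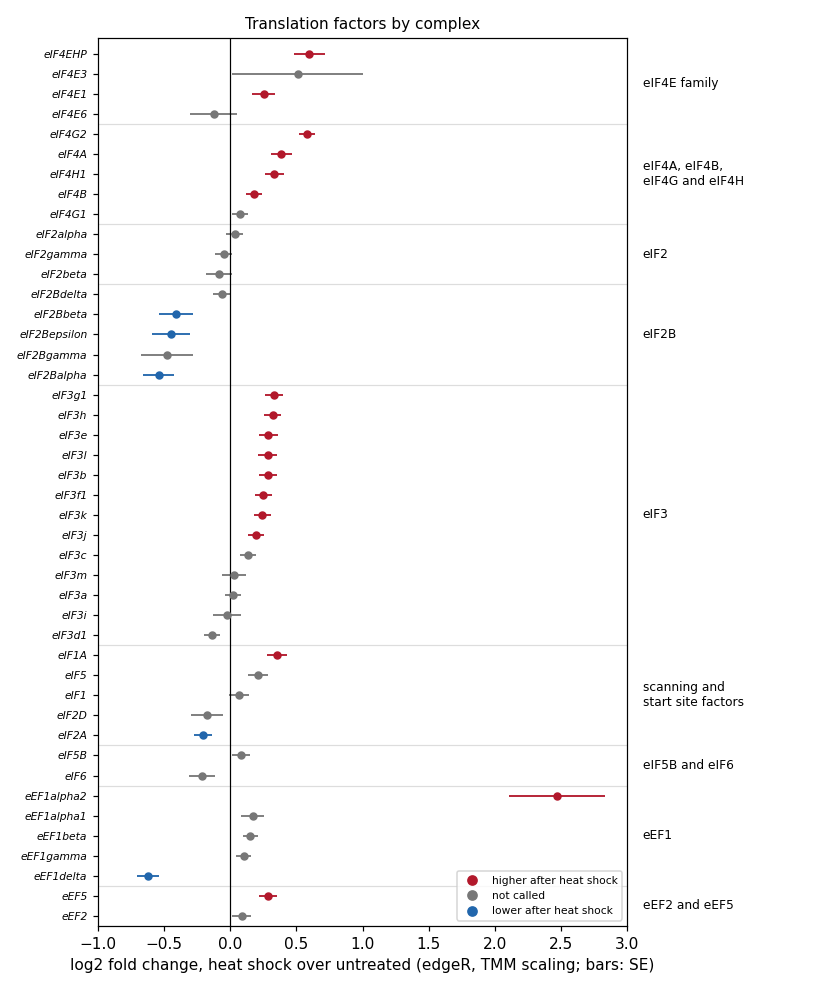
Log2 fold change, heat shock over untreated, of the 44 translation factors tested, grouped by complex, from the edgeR fit with TMM scaling (points: estimate; bars: SE). The eIF3 and eIF4 groups hold 14 of the 17 rises, of which 11 become falls with library totals alone, the eIF2B group holds 3 of the 5 falls, and eEF1alpha2 stands apart at 2.47.

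Levels spanned a wide range within most complexes. On the TPM scale, which divides by transcript length and so allows genes to be compared, eEF1alpha1 was the most abundant of all 17697 genes in untreated cells, at a mean of 17872 TPM, and ranked 6 after heat shock, at 14088 TPM. Among the factors, the next in untreated cells were eEF2, at 5813 TPM, and eIF4A, at 4827 TPM, which ranked 15 and 25 among all genes. After heat shock eEF2 stood at 4302 TPM and eIF4A at 4401 TPM, with ranks of 32 and 31. TPM values carry no TMM factor, so they follow the library totals and lie lower after heat shock for nearly all factors. The 51 factors together took 3.57% and 3.57% of the TPM after heat shock and 4.43% and 4.55% in untreated cells.

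Subunits of a single complex were not present at a single level. Across the 13 expressed eIF3 genes the highest mean TPM, that of eIF3e, was 6.50 times the lowest, that of eIF3i, after heat shock and 5.24 times in untreated cells. In eIF2B the regulatory subunit gene eIF2Bdelta exceeded the catalytic subunit gene eIF2Bepsilon 13.6 times after heat shock and 10.5 times in untreated cells. The helicase gene eIF4A stood 33.9 times above eIF4G2, the lowest expressed gene of its group, after heat shock and 38.1 times in untreated cells.

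**Figure D2:**
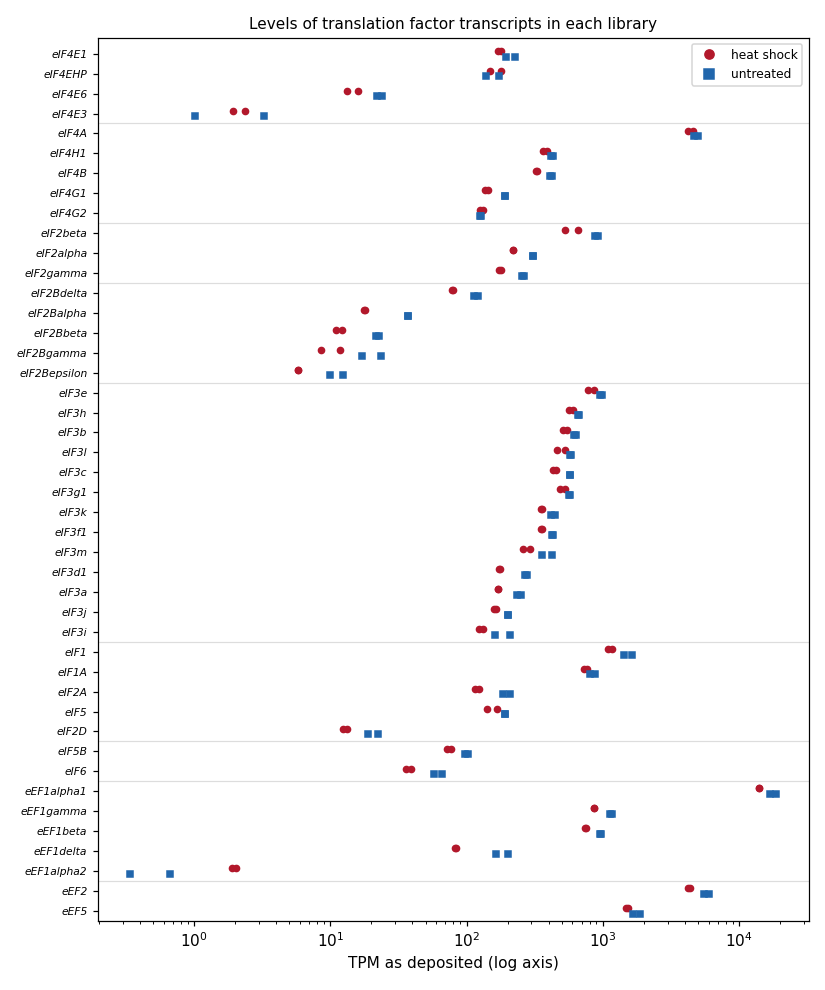
Deposited TPM of each of the 44 factors tested in each library, on a log axis, ordered within complexes by the untreated mean (circles: heat shock, 2 libraries; squares: untreated, 2 libraries). Levels run between 0.34 TPM for eEF1alpha2 in an untreated library and 18784 TPM for eEF1alpha1 in the other, and most heat shock points lie left of the untreated points on this scale, which has no TMM factor.

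The eIF4E family binds the mRNA cap. Of its 7 genes, 4 were tested, 2 (50.0%) were higher and none was lower, beside 21.4% and 18.6% of all genes tested. With library totals alone 2 (50.0%) were lower and none higher, beside 71.2% and 8.75% of all genes tested. The median log2 fold change with TMM was 0.38. It includes eIF4E3, at 0.51 ± 0.49 (SE, log2) and 6 to 19 counts in a library. The family's largest rise was that of eIF4EHP (FBgn0053100, 3R, 24063077 to 24108960), a cap-binding protein that does not bind eIF4G and represses chosen mRNAs in the fly embryo. It had 291 and 246 CPM after heat shock, against 157 and 199 CPM in untreated cells. Both heat shock libraries lay above both untreated ones, and the gap to the higher untreated library was about the size of the spread within each group. The fitted change was 0.60 ± 0.12 (SE, log2), with an edgeR adjusted p of 0.00473. The gene was not called with library totals alone.

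The general cap-binding factor eIF4E1 (FBgn0015218, 3L, 9399618 to 9402460) had 184 and 173 CPM after heat shock and 138 and 162 CPM in untreated cells. The groups did not overlap, but the step between them was small, at a log2 fold change of 0.25 ± 0.09 (SE) and an edgeR adjusted p of 0.0449. It turned to a called fall with library totals alone, and its call was lost without the first untreated library, at 0.13, and without the first heat shock library, at 0.20. Of the paralogues, eIF4E6 was low, with 6.88 and 5.73 CPM after heat shock and 6.56 and 7.27 CPM in untreated cells, and eIF4E3 was close to the detection limit, with 13 and 14 counts after heat shock and 19 and 6 counts in untreated cells. Their groups overlapped and neither was called. No count of eIF4E4 was seen in any library, which allows up to 3 counts, or 0.250 to 0.294 CPM on the unscaled totals. At most 2 counts were seen for eIF4E5 and 1 for eIF4E7, all in the first heat shock library. Of the cap-binding genes, eIF4E1 and eIF4EHP were thus the abundant ones, with mean TPM values of 175 and 163 after heat shock and 210.0 and 156 in untreated cells. TPM carries no TMM factor, so for eIF4E1 it lay lower after heat shock while its CPM lay higher.

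Among eIF4A, eIF4B, eIF4G and eIF4H genes, 4 of 5 tested were higher and none was lower, with a median log2 fold change of 0.33. Over all genes tested 21.4% were higher and 18.6% lower. All 5 averaged at least 100 CPM, where 35.0% of all genes were higher and 12.1% lower. With library totals alone 3 of the 5 were lower and none higher, beside 71.2% of all genes lower and 8.75% higher. The scaffold paralogue eIF4G2 (FBgn0260634, 3R, 23808285 to 23819237), known for its role in the male germ line of the fly, had 742 and 722 CPM after heat shock, against 483 and 496 CPM in untreated cells. These were tight pairs with a wide gap, and the change of 0.58 ± 0.06 (SE, log2) had the smallest p of any factor, an edgeR adjusted p of 1.75e-04. The general scaffold eIF4G1 (FBgn0023213, chromosome 4, 915297 to 930715) had 547 and 522 CPM after heat shock and 499.9 and 518 CPM in untreated cells, a change of 0.071 ± 0.06 (SE, log2) that was not called (edgeR adjusted p = 0.378). Not being called does not show that it was unchanged.

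The helicase gene eIF4A (FBgn0001942, 2L, 5981764 to 5985909) had 4994 and 4647 CPM after heat shock and 3498 and 3876 CPM in untreated cells. The groups were apart by more than the spread within either, with a log2 fold change of 0.39 ± 0.08 (SE) and an edgeR adjusted p of 0.00547. Its call was lost without the first heat shock library, at 0.33. The gene eIF4H1 (FBgn0262734, X, 16448665 to 16454972) is named after vertebrate eIF4H, a cofactor of the helicase. It had 893 and 975 CPM after heat shock and 719 and 762 CPM in untreated cells, a change of 0.33 ± 0.07 (SE, log2; edgeR adjusted p = 0.00577). The other helicase cofactor, eIF4B, had 345 and 350 CPM after heat shock and 308 and 306 CPM in untreated cells, a change of 0.18 (edgeR adjusted p = 0.0377). The rise of eIF4H1 was lost without the second heat shock library, at 0.26, that of eIF4B when any library was left out, and both became falls with library totals alone. At most 1 count was seen for eIF4H2 in a library.

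No subunit gene of eIF2, the carrier of the initiator tRNA, was called, and the 3 log2 fold changes lay between -0.083 and 0.033. The most abundant, eIF2beta (FBgn0004926, 3L, 12525093 to 12526731), had 390 and 484 CPM after heat shock and 445 and 481 CPM in untreated cells, so that the heat shock libraries spanned both untreated ones. The substrate of the eIF2 kinases, eIF2alpha, had 176 and 178 CPM after heat shock and 170 and 176 CPM in untreated cells. For eIF2gamma, 16.0% of the exonic bases are shared with Su(var)3-9 on the same strand, and for eIF2alpha 12.6% lie opposite rngo, so reads there may belong to either gene. All 3 were lower and called with library totals alone and with totals counted without the heat shock genes. Of all genes tested, 71.2% were lower under the former scaling and 41.0% under the latter.

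The 5 genes of eIF2B, the exchange factor that recharges eIF2, all had negative log2 fold changes, with a median of -0.45. Of these, 3 (60.0%) were called lower, beside 18.6% of all genes tested. The regulatory subunit gene eIF2Balpha (FBgn0039726, 3R, 29934582 to 29935888) had 11.4 and 11.8 CPM after heat shock, against 16.6 and 17.1 CPM in untreated cells. The pairs were tight and well apart, with a change of -0.54 ± 0.12 (SE, log2) and an edgeR adjusted p of 0.00728. The second regulatory gene, eIF2Bbeta (FBgn0024996, X, 2704571 to 2706217), had 10.9 and 9.85 CPM after heat shock and 13.9 and 13.6 CPM in untreated cells, a change of -0.41 ± 0.13 (SE, log2; edgeR adjusted p = 0.0333). The catalytic subunit gene eIF2Bepsilon (FBgn0023512, X, 1920166 to 1922874) had 8.78 and 8.93 CPM after heat shock and 13.1 and 11.0 CPM in untreated cells, a change of -0.45 ± 0.15 (SE, log2; edgeR adjusted p = 0.0399). These groups did not overlap for any of the called genes.

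The fall of eIF2Bgamma, at -0.48 ± 0.20 (SE, log2), was as large but its libraries were spread more widely, with 8.78 and 12.1 CPM after heat shock and 16.6 and 12.3 CPM in untreated cells, and it was not called (edgeR adjusted p = 0.0827). The abundant subunit gene eIF2Bdelta (FBgn0034858, 2R, 23386521 to 23389052) had 106 and 109 CPM after heat shock and 114 and 110 CPM in untreated cells, a change of -0.066 (edgeR adjusted p = 0.447). The 4 genes with falls of 0.41 or more were thus the scarce ones. The call of eIF2Bepsilon was lost without the first untreated library, at -0.32, without the first heat shock library, at -0.44, and without the second, at -0.46, and that of eIF2Bbeta without the first untreated library, at -0.40, and without the second heat shock library, at -0.35. DESeq2 called none of the 5, with adjusted p-values of 0.115 for eIF2Balpha, 0.308 for eIF2Bbeta and 0.305 for eIF2Bepsilon. With library totals alone and with totals counted without the heat shock genes, all 5 were called lower, beside 71.2% and 41.0% of all genes tested.

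**Figure D3:**
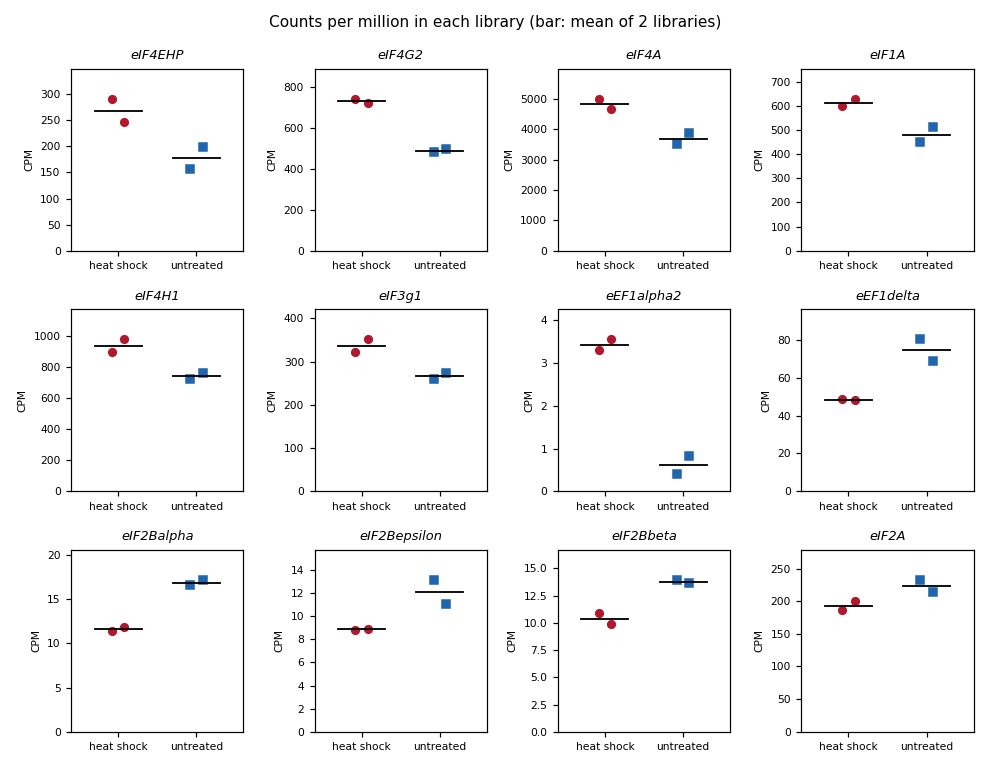
CPM on TMM-scaled totals in each library for the 6 largest called rises and the 5 called falls among factors that averaged at least 10 CPM in a group, and for eEF1alpha2 (circles: heat shock, 2 libraries; squares: untreated, 2 libraries; line: mean). The groups do not overlap for any of the 12 genes, heat shock means run between 3.42 CPM for eEF1alpha2 and 4821 CPM for eIF4A, and with library totals alone the rises of eIF1A, eIF4H1 and eIF3g1 become falls.

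The eIF3 complex binds the small ribosomal subunit and holds the other initiation factors on it. Of its 16 genes, 13 were tested, 8 (61.5%) were higher and none was lower, beside 21.4% and 18.6% of all genes tested. All of the 13 but eIF3i averaged at least 100 CPM, where 35.0% of all genes were higher and 12.1% lower. The median log2 fold change of the 13 was 0.24, with a range of -0.14 to 0.33. All 8 became called falls with library totals alone, where 71.2% of all genes tested were lower. None of the 8 was called with totals counted without the heat shock genes. The largest rise belonged to eIF3g1 (FBgn0029629, X, 2609247 to 2610336), with 322 and 351 CPM after heat shock against 261 and 273 CPM in untreated cells, a change of 0.33 ± 0.07 (SE, log2; edgeR adjusted p = 0.00550). The most abundant subunit gene on the TPM scale, eIF3e (FBgn0025582, 3L, 16785242 to 16786941), had 866 and 790 CPM after heat shock and 653 and 705 CPM in untreated cells, a change of 0.29 ± 0.07 (SE, log2; edgeR adjusted p = 0.0131). In both genes the heat shock libraries lay above the untreated ones.

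The other called rises in eIF3 were those of eIF3h (0.32), eIF3l (0.28), eIF3b (0.28), eIF3f1 (0.25), eIF3k (0.24) and eIF3j (0.19), all on the log2 scale. The core subunit eIF3b had 941 and 876 CPM after heat shock and 722 and 772 CPM in untreated cells, and its partners in the core, eIF3a and eIF3c, changed by 0.023 and 0.13 without being called. Thus the core held a gene that was called and genes that were not. The gene eIF3d1 (FBgn0040227, 3R, 23680039 to 23682317) went the other way, with 233 and 233 CPM after heat shock and 257 and 256 CPM in untreated cells, at -0.14 ± 0.06 (SE, log2; edgeR adjusted p = 0.0917), which missed the threshold. Its human counterpart can contact the cap of some mRNAs. The subunit genes eIF3i and eIF3m had overlapping groups. The exons of eIF3h lie opposite those of senju over 16.8% of their length, and strand was not stated for the counting.

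Several of these calls were lost when a library was left out, though all 8 log2 fold changes stayed positive. Such a fit leaves a lone library in a group, so a lost call need not mean that the rise rested on the library left out. The change of eIF3j, for example, stayed between 0.17 and 0.21. Without the first heat shock library the calls of eIF3b (0.23), eIF3e (0.22) and eIF3l (0.20) were lost, without the first untreated library that of eIF3f1 (0.21), and without the second untreated library that of eIF3k (0.21), while that of eIF3j was lost whichever library was left out. The rises of eIF3g1 and eIF3h kept their calls each time. The paralogues of the d, f and g subunits were not expressed, since no count was seen for eIF3d2, and at most 1 count in a library for eIF3f2 and eIF3g2. Among expressed paralogues of these sets, eIF3f1 had 304 and 303 CPM after heat shock and 249 and 262 CPM in untreated cells.

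Of 5 factors that act in scanning, at the start codon or in other routes to deliver the initiator tRNA, 1 was higher and 1 lower. Each was 20.0% of the group, near the 21.4% higher and 18.6% lower of all genes tested. The scanning factor eIF1A (FBgn0026250, 3R, 18274665 to 18283005) had 598 and 628 CPM after heat shock and 450 and 511 CPM in untreated cells, a change of 0.35 ± 0.07 (SE, log2; edgeR adjusted p = 0.00684) that turned to a fall with library totals alone. Its partner in start codon choice, eIF1 (FBgn0035423, 3L, 3223341 to 3224650), had 467 and 504 CPM after heat shock and 489 and 436 CPM in untreated cells, with overlapping groups. The fall belonged to eIF2A (FBgn0037135, 3L, 21824740 to 21827856), a single protein unrelated to the eIF2 complex, with 187 and 200 CPM after heat shock and 232 and 213 CPM in untreated cells. Its heat shock libraries lay below both untreated ones, by a log2 fold change of -0.21 ± 0.07 (SE; edgeR adjusted p = 0.0472). The call was lost without the first untreated library, at -0.15, and without the first heat shock library, at -0.16.

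The remaining start site genes were not called, at 0.21 for eIF5, which triggers GTP hydrolysis by eIF2, and -0.18 for eIF2D. The value of eIF5 is uncertain. Of its exonic bases 80.8% are shared with CG46312 on the same strand, and the posterior SD that RSEM gave its estimated count reached 23.0% of the count, the only factor tested that went above 10%. The subunit joining factor eIF5B (FBgn0026259, 3L, 3428658 to 3460977) had 193 and 210 CPM after heat shock and 184 and 196 CPM in untreated cells, with overlapping groups. The gene for eIF6, which keeps free large subunits apart from small ones, had 24.4 and 26.9 CPM after heat shock and 31.4 and 27.9 CPM in untreated cells, a change of -0.21 that was not called (edgeR adjusted p = 0.121).

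In the eEF1 group, 1 of 5 genes (20.0%) was higher, 1 (20.0%) was lower and 3 were not called. These shares were near the 21.4% higher and 18.6% lower of all genes tested. The main tRNA carrier eEF1alpha1 (FBgn0284245, 2R, 11891135 to 11895762) had 18644 and 18919 CPM after heat shock and 15622 and 17761 CPM in untreated cells. The untreated libraries were wide apart, and the change of 0.17 ± 0.09 (SE, log2) was not called (edgeR adjusted p = 0.156). Its paralogue eEF1alpha2 (FBgn0000557, 3R, 31738468 to 31743306) was barely expressed, with 33 and 31 counts after heat shock against 5 and 10 counts in untreated cells, or 3.29 and 3.55 CPM against 0.400 and 0.816 CPM. The groups were far apart for so few counts, and the log2 fold change of 2.47 ± 0.36 (SE; edgeR adjusted p = 0.00116) was 5.55-fold. It was called under each of the 3 scalings and without any single library, and was not tested when at least 10 counts were asked of every library. RSEM gave little uncertainty to the split of reads between both paralogues, with a posterior SD of at most 0.0968% of the count of eEF1alpha2. Even so eEF1alpha1 exceeded it 7133 times in mean TPM after heat shock and 35745 times in untreated cells.

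The exchange subunit gene eEF1delta (FBgn0032198, 2L, 10232507 to 10234450) fell to 48.6 and 48.2 CPM after heat shock, against 80.2 and 68.8 CPM in untreated cells. It had the largest fall of any factor, at -0.62 ± 0.09 (SE, log2), with an edgeR adjusted p of 8.17e-04, and kept its call under each scaling and without any single library. The other exchange subunit, eEF1beta, had 388 and 387 CPM after heat shock and 344 and 353 CPM in untreated cells, and the scaffold subunit eEF1gamma had 949.8 and 955 CPM after heat shock and 887 and 890.1 CPM in untreated cells. Their changes of 0.15 and 0.10 were not called. With library totals alone eEF1alpha1, eEF1beta and eEF1gamma were called lower.

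The translocase eEF2 (FBgn0000559, 2L, 21677913 to 21682164) had 7828 and 8145 CPM after heat shock and 7735 and 7323 CPM in untreated cells, a change of 0.085 ± 0.07 (SE, log2) that was not called (edgeR adjusted p = 0.379) and became a called fall with library totals alone. The gene eEF5 (FBgn0285952, 2R, 24057798 to 24059483), the fly eIF5A that frees ribosomes stalled on proline-rich stretches, had 705 and 733 CPM after heat shock and 616 and 564 CPM in untreated cells. Its rise of 0.29 ± 0.07 (SE, log2; edgeR adjusted p = 0.00996) was lost without the second heat shock library, at 0.25, and turned to a fall with library totals alone.

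Ratios of TPM between genes within a library do not depend on how libraries are scaled. The pairs were chosen after the values were seen, so they are given as a description with no test. The ratio of eIF4G2 to eIF4G1 was 0.921 and 0.924 after heat shock and 0.668 and 0.655 in untreated cells, and that of eIF4EHP to eIF4E1 was 0.988 and 0.875 after heat shock and 0.714 and 0.768 in untreated cells. In both pairs the paralogue gained on the general factor in each library. The ratio of eIF4A to eIF4G1 was 31.7 and 30.8 after heat shock and 24.3 and 26.0 in untreated cells.

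Subunits of the eEF1 and eIF2B complexes also moved apart. The ratio of eEF1delta to eEF1beta was 0.112 and 0.110 after heat shock and 0.207 and 0.172 in untreated cells, while that of eEF1beta to eEF1gamma was 0.869 and 0.863 after heat shock and 0.827 and 0.844 in untreated cells, a much smaller shift. For eIF2Balpha to eIF2Bdelta the ratio was 0.226 and 0.228 after heat shock and 0.304 and 0.329 in untreated cells. Within eIF3, eIF3e to eIF3d1 stood at 4.96 and 4.52 after heat shock and 3.39 and 3.67 in untreated cells. None of these pairs overlapped between the groups, whereas eEF1alpha1 to eEF2 did, at 3.32 and 3.23 after heat shock and 2.80 and 3.37 in untreated cells.

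**Figure D4:**
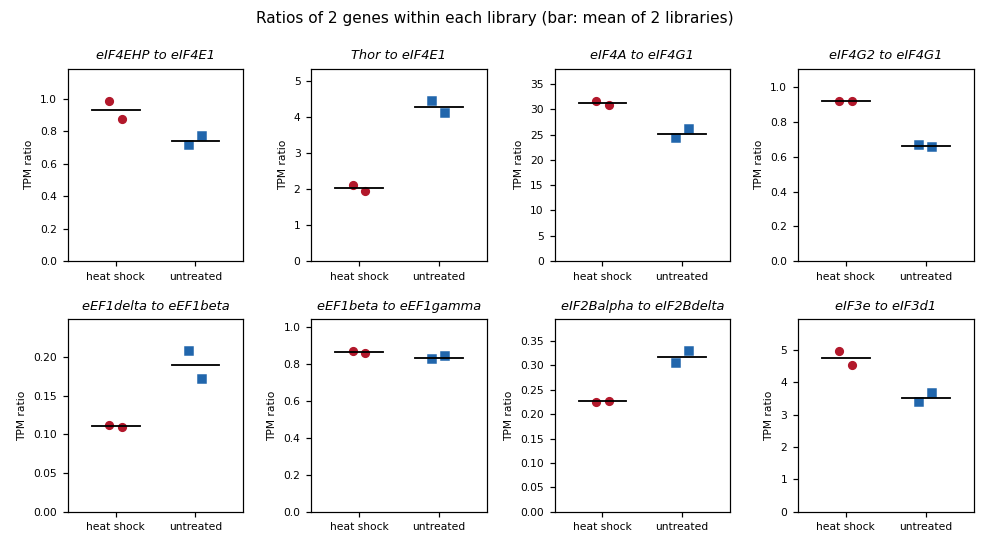
Ratio of the TPM of 2 genes within each library for 8 pairs (circles: heat shock, 2 libraries; squares: untreated, 2 libraries; line: mean). The mean of Thor to eIF4E1 is 2.03 after heat shock and 4.29 in untreated cells, that of eIF4G2 to eIF4G1 is 0.922 after heat shock and 0.661 in untreated cells, and that of eEF1beta to eEF1gamma is nearly level, at 0.866 after heat shock and 0.835 in untreated cells.

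The factors work with regulators and with termination, modification and mitochondrial proteins, which were taken from a list of 40 names, of which 36 matched a gene and all 36 were tested. Of these, 7 (19.4%) were higher, near the 21.4% of all genes, and 12 (33.3%) were lower, beside 18.6% of all genes, with a median log2 fold change of -0.035. The regulators of the cap complex divided, with 2 of 7 (28.6%) higher and 4 (57.1%) lower. The 4E-BP gene Thor, which binds eIF4E and blocks its meeting with eIF4G, had 183 and 158 CPM after heat shock and 287 and 317 CPM in untreated cells, a change of -0.82 ± 0.09 (SE, log2; edgeR adjusted p = 1.97e-04). The eIF4E-binding repressors 4E-T and cup changed by -0.85 and -0.94, each with 2 close libraries a group. For cup the posterior SD reached 44.9% of the estimated count, so its fall is uncertain. The ratio of Thor to eIF4E1 was 2.12 and 1.94 after heat shock and 4.47 and 4.12 in untreated cells.

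At the other end of the mRNA, pAbp, the poly(A)-binding protein that meets eIF4G, had 4852 and 5601 CPM after heat shock and 3756 and 3758 CPM in untreated cells, a rise of 0.48 (log2; edgeR adjusted p = 0.00269). Its inhibitor Paip2 had 664 and 682 CPM after heat shock and 410.1 and 472 CPM in untreated cells, a rise of 0.61 (log2; edgeR adjusted p = 5.34e-04). Both the binding protein and its inhibitor were higher with TMM scaling, and neither was called with library totals alone. The rise of pAbp was lost without the second heat shock library, at 0.36.

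With TMM scaling the eIF2 kinase genes went in opposite directions. The ER-bound kinase gene PEK had 354 and 343 CPM after heat shock and 229 and 239.5 CPM in untreated cells, a change of 0.57 ± 0.06 (SE, log2; edgeR adjusted p = 2.36e-04). Gcn2, the kinase that senses uncharged tRNA, had 73.4 and 84.7 CPM after heat shock and 103 and 93.4 CPM in untreated cells, a change of -0.32 ± 0.09 (SE, log2; edgeR adjusted p = 0.0219) that was lost without the first untreated library, at -0.25, and without the first heat shock library, at -0.22. With totals counted without the heat shock genes, PEK was still called higher, at 0.38, and Gcn2 lower, at -0.51. With library totals alone Gcn2 was called lower, at -0.85, and PEK was not called, at 0.037. The gene crc, the fly ATF4 that is translated when eIF2 is phosphorylated, had 1669 and 1655 CPM after heat shock. In untreated cells crc had 1459 and 1520 CPM, and it was not called (0.16, edgeR adjusted p = 0.0702). Phosphorylation itself was not measured.

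Of 5 genes listed under growth signalling, S6k, Lk6, REPTOR and REPTOR-BP were higher and raptor was not called. With TMM scaling 80.0% of this list was thus higher, beside 21.4% of all genes tested. The largest change was that of the transcription factor gene REPTOR, at 0.47 (edgeR adjusted p = 8.60e-04). It had 688 and 659.5 CPM after heat shock and 470.4 and 506 CPM in untreated cells. The list joins genes of different roles, so the count gives no direction of growth signalling, which was not measured. With library totals alone none of the 5 was higher and 4 (80.0%) were lower, beside 71.2% of all genes tested. Of 6 genes that modify elongation factors, 4 (66.7%) were lower with TMM, beside 18.6% of all genes tested. With library totals alone 4 (66.7%) were lower, beside 71.2% of all genes tested. Of the 4 called with TMM, 3 make diphthamide, the modified histidine of eEF2. The first enzyme gene of that route, Dph1, had 28.1 and 34.7 CPM after heat shock and 61.7 and 57.2 CPM in untreated cells, a change of -0.93 ± 0.10 (SE, log2; edgeR adjusted p = 2.44e-04). The fourth, nero, encodes the hydroxylase that completes hypusine on eEF5, and changed by -0.65 (edgeR adjusted p = 0.0274). Its substrate gene eEF5 was higher at 0.29 with TMM scaling. Of these 4 falls DESeq2 called that of Dph1 alone, with adjusted p-values of 0.163 for Dph2, 0.253 for Dph5 and 0.203 for nero. Of 7 genes of termination, recycling and rescue, 1 (14.3%) was called lower, HBS1 at -0.46, beside 18.6% of all genes tested. The release factor genes eRF1 and eRF3 changed by 0.052 and 0.016 without being called. Of 7 mitochondrial and selenocysteine factors, 2 (28.6%) were lower, beside 18.6% of all genes tested. These were mEFTu2 at -0.70 and mEFTs at -0.33. DESeq2 called neither, with adjusted p-values of 0.0590 for mEFTu2 and 0.0990 for mEFTs.

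**Figure D5:**
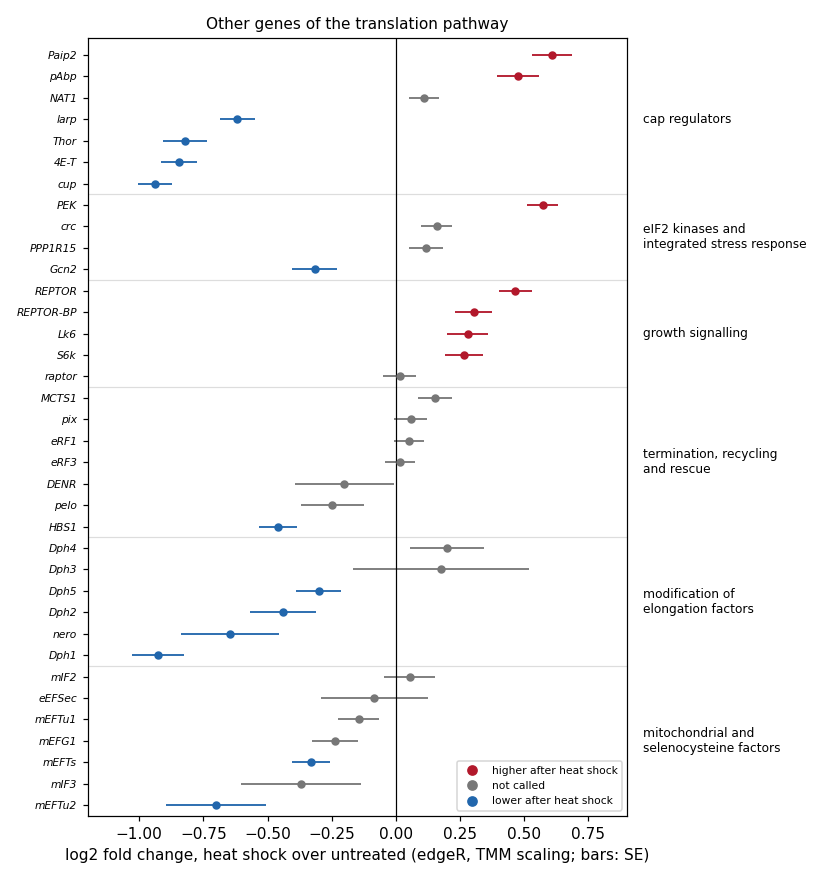
Log2 fold change, heat shock over untreated, of 36 other genes of the translation pathway by role, from the edgeR fit with TMM scaling (points: estimate; bars: SE). Cap regulators lie on both sides of 0, between cup at -0.94 and Paip2 at 0.61, and the genes that modify elongation factors reach -0.93 at Dph1; with library totals alone none of the 7 rises is called.

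For scale, the genes of the cytosolic ribosomal proteins and of the aminoacyl-tRNA synthetases were counted in the same fit. Of 81 ribosomal protein genes tested, 61 (75.3%) were higher and none lower, with a median of 0.29. With library totals alone none was higher and 70 (86.4%) were lower. Of 32 synthetase genes, none was higher and 15 (46.9%) were lower, with a median of -0.28, and 32 were lower with library totals alone. Over all genes tested 21.4% were higher and 18.6% lower with TMM, and 8.75% and 71.2% with library totals alone. The initiation and elongation factors, at a median of 0.12, lay between both lists. The difference between the lists was not tested.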

How the data were processed

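Poly(A) RNA of S2 cells was sequenced as 50 bp reads, and libraries were grouped by the stress named in the labels. The authors deposited, for each library, a table with an estimated count per gene, TPM, FPKM, lengths and the posterior SD of the count. The processing notes name Trimmomatic 0.36, STAR 2.6.1c and RSEM 1.3.1 with the dm6 assembly, whereas the study's methods name other counting software, and neither states the use of strand. RSEM divides a read with several possible origins over them. TPM values deposited by the authors were used for levels, ratios and 2 alternatives. FPKM values and the pooled tables, which also hold the authors' own comparisons, were not used.

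Of 17697 gene identifiers, 17570 matched a symbol in the Ensembl annotation of the same assembly. Coordinates are 1-based, on release 6. Estimated counts were rounded, filtered with filterByExpr, scaled with TMM and tested with edgeR 4.0.16 (quasi-likelihood, R 4.3.3) with no block, adjusted by Benjamini-Hochberg over all 8784 genes tested, at a threshold of 0.05. The SE is the log2 fold change divided by the root of its F statistic. The test was tried on simulated counts first. With 2 libraries a group, an exact permutation test cannot go below p = 0.333, so none was run.

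Per-library values are given for the 6 largest called rises and falls among factors that averaged 10 CPM in a group, the most abundant factor of each complex, the paralogue sets, the 4 largest rises and falls among the pathway genes, and Thor, pAbp, PEK, Gcn2 and crc. Other genes with values were chosen after these were seen. The factors, the lists and the rule were chosen with earlier results of these data known. No match was found for Gcn1, Tor, DHPS and mEFG2 of the pathway list. Alternatives were DESeq2 1.42.0, limma-voom (limma 3.58.1), other scalings and filters, log2 of TPM plus 1 or 0.1, a replicate block and leaving out each library. The block stayed an alternative. Deviations of same-numbered libraries did not correlate positively, which with 2 libraries a group cannot show whether they were paired.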

Additional observations from a re-analysis of the deposited data

How the results depend on the processing

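Limma-voom called the same 22 factors, and RLE size factors 21 of them. Scaling moved the most. The median log2 fold change of the factors was 0.10 with DESeq2, 0.14 with RLE size factors, 0.077 without the filter on low counts, 0.11 with at least 10 counts in every library, -0.42 with library totals, -0.079 with totals without the heat shock genes, and -0.40 on log2(TPM + 1) and on log2(TPM + 0.1). Factors called higher numbered 1 with library totals, 4 with totals without the heat shock genes, and 1 on each TPM scale, while 39 were lower with library totals, 14 with totals without the heat shock genes, 38 on each TPM scale and 1 with DESeq2, which gave no adjusted p to 5 of the factors that edgeR did not test. Of the pathway genes, 0 were higher and 30 lower with library totals and on each TPM scale, 4 were higher with totals without the heat shock genes, and 7 were lower with DESeq2. Genes called in all numbered 3513 with TMM, 1824 with DESeq2, 7025 with library totals, 6866 on log2(TPM + 1) and 6803 on log2(TPM + 0.1). A TPM fold change is on the log2(value + pseudocount) scale and understates changes of low genes. Beyond what each setting changes by construction, the cause was not tested. Fits without a library assume that the lone one varies like the other group.

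Log2 fold changes that were positive with TMM were negative with library totals: eIF4E1 -0.28, eIF4E3 -0.023, eIF4A -0.15, eIF4B -0.36, eIF4G1 -0.46, eIF4H1 -0.20, eIF2alpha -0.50, eIF3a -0.51, eIF3b -0.25, eIF3c -0.40, eIF3e -0.25, eIF3f1 -0.28, eIF3g1 -0.20, eIF3h -0.21, eIF3j -0.34, eIF3k -0.29, eIF3l -0.25, eIF3m -0.51, eIF1 -0.47, eIF1A -0.18, eIF5 -0.32, eIF5B -0.45, eEF1alpha1 -0.36, eEF1beta -0.38, eEF1gamma -0.43, eEF2 -0.45, eEF5 -0.25, pAbp -0.060, crc -0.38 and REPTOR -0.069. With totals without the heat shock genes, the negative ones were eIF4B -0.017, eIF4G1 -0.13, eIF2alpha -0.16, eIF3a -0.17, eIF3c -0.062, eIF3j -0.0018, eIF3m -0.17, eIF1 -0.13, eIF5B -0.11, eEF1alpha1 -0.025, eEF1beta -0.045, eEF1gamma -0.10, eEF2 -0.11 and crc -0.037. On log2(TPM + 1) they were eIF4E1 -0.26, eIF4A -0.13, eIF4B -0.34, eIF4G1 -0.44, eIF4H1 -0.17, eIF2alpha -0.49, eIF3a -0.49, eIF3b -0.23, eIF3c -0.38, eIF3e -0.23, eIF3f1 -0.27, eIF3g1 -0.18, eIF3h -0.20, eIF3j -0.32, eIF3k -0.27, eIF3l -0.24, eIF3m -0.49, eIF1 -0.45, eIF1A -0.17, eIF5 -0.31, eIF5B -0.42, eEF1alpha1 -0.34, eEF1beta -0.37, eEF1gamma -0.42, eEF2 -0.43, eEF5 -0.23, pAbp -0.11, crc -0.36 and REPTOR -0.067. On log2(TPM + 0.1) each was the same to 2 decimals except eIF4B -0.35, eIF4G1 -0.45 and eIF3b -0.24. Without the filter, eIF2alpha -0.0081, eIF3a -0.018 and eIF3m -0.012 were below 0. The sign of these uncalled values rested on single libraries when each was left out in turn: eIF4E3 between -0.081 and 1.53, eIF2beta between -0.25 and 0.062, eIF3a between -0.013 and 0.048, eIF3i between -0.18 and 0.14, eIF3m between -0.074 and 0.12 and eIF1 between -0.016 and 0.15. Leaving out a library gave 10 to 16 factors higher, 2 to 7 lower, and medians of 0.11 to 0.12.

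Deviations of same-numbered libraries from their group means correlated at -0.17 over 8784 genes. Over 5735 genes of at least 10 CPM the value was -0.38. With 2 libraries a group, each group gives a single difference, so these values cannot show whether the numbers paired the libraries. A replicate block gave 14 factors higher and 5 lower, without eIF4B, eIF3j, eIF3k and eIF2A and with eIF2Bgamma. The crossed pairing, chosen after seeing the data, gave 21 and 8.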
